A study of Mus musculus with 8 samples.

Results

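Imprinted genes are genes of which only the maternal or only the paternal copy is expressed in some or all tissues. A set of 38 of them was chosen by symbol and followed by locus. The samples, from C57BL/6 mice, are described as beta pancreatic cells, the insulin-secreting cells of the islets. The set was put together with the diet difference of these arrays known: Mest and Nnat had been seen lower on the high-fat diet first. Its diet values are therefore a description, without a test, and nothing is read from them beyond their size. Of the 38 genes, 37 had a probe under their symbol (Rian had none), and 33 had a probe well above background on at least 4 of the 8 arrays, out of 19994 genes that passed the same filter.

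The study compared 4 samples from mice on a high-fat diet with 4 from mice on a control diet, which the source labels also call chow. All were C57BL/6 without any other genotype named, and the cells were frozen at sacrifice. Age, sex, time on the diet and the way the cells were isolated are not given in the sources used here. Total RNA was labelled with Cy3 and read on single-colour Agilent arrays of 60-base probes, 1 sample per array. The labels call the samples biological replicates, numbered 1 to 4 in each diet. Replicates 1 and 2 of both diets were on slide 1 and replicates 3 and 4 of both on slide 2. On each slide the high-fat samples lay at positions 2 and 4 and the control samples at positions 1 and 3, so the place of an array on its slide cannot be told apart from the diet.

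Most imprinted loci are governed by a control region whose DNA methylation is set in the egg or the sperm and kept in the cells of the animal. Neighbouring genes of a locus can be expressed from opposite parental copies, often with a long non-coding RNA among them. Several imprinted genes encode growth factors, their receptors, cell cycle inhibitors and adaptors of insulin signalling. Expression arrays read the sum of both copies: they show how much RNA a gene gave, not from which parent's copy it came. In cells measured in bulk, fewer cells of a type and less RNA per cell cannot be told apart either.

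The promoters of the pairs of neighbours on which the account turns, and of Peg3, are shown first. CG dinucleotides are the letters that can carry DNA methylation. Each sequence holds the 250 bases before an annotated start in RefSeq's table for GRCm38.p6. It is read 5′ to 3′ on the gene's strand, with CG dinucleotides in capitals. Methylation was not measured here, and the capitals do not mark imprinted sites. Mest lies at chr6:30737803-30738052 on the plus strand, with 14 CG dinucleotides. Copg2, its neighbour, lies at chr6:30896795-30897044 on the minus strand, with 19. Nnat lies at chr2:157559828-157560077 on the plus strand and Blcap, the gene around it, at chr2:157566362-157566611 on the minus strand, with 12 each. Peg3 lies at chr7:6730420-6730669 on the minus strand, with 8.
Mest: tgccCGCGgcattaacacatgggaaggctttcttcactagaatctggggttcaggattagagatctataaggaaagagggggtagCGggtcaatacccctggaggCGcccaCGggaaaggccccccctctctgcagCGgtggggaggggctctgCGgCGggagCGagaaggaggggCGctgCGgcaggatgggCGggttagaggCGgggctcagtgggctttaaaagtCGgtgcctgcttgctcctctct
Copg2: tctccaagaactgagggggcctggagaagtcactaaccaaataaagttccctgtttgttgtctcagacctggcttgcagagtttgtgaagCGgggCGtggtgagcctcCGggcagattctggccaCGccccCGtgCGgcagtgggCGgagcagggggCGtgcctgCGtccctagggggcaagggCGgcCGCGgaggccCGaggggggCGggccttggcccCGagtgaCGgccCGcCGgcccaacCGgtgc
Nnat: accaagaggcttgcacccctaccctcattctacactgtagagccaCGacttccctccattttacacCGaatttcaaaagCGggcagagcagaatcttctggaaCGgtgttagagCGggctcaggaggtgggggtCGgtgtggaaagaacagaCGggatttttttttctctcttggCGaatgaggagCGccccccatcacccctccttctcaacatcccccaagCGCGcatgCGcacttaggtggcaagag
Blcap: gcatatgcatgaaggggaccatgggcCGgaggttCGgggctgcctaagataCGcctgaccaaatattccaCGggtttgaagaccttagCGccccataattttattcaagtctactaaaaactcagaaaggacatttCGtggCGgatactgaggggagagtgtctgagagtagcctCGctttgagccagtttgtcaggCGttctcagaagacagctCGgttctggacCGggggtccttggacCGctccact
Peg3: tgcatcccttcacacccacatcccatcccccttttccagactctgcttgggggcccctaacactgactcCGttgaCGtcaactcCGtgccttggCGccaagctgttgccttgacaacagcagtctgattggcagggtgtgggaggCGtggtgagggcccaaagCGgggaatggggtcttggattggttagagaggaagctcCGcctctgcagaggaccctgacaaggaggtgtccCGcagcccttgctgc

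The Peg3 sequence also overlaps the start of Usp29, which runs the other way on the plus strand: the 300-base windows around both starts shared 263 bases. In the table, 32 of the 38 genes had at least 1 promoter window of 300 bases, from 250 before to 50 after a start, and 21 of the 32 (65.6%) had a CG-rich one. Over all genes of the table that share was 35.8% (9669 of 27025). CG-rich means over 50% G and C, and more than 0.6 times the CG dinucleotides that the window's own G and C content would give. The median window of an imprinted gene held 15 CG dinucleotides (48 windows) and the median of all 32851 windows held 7. A gene can have several windows, and the table mixes protein-coding with non-coding genes. These shares are a description.

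**Figure D1:**
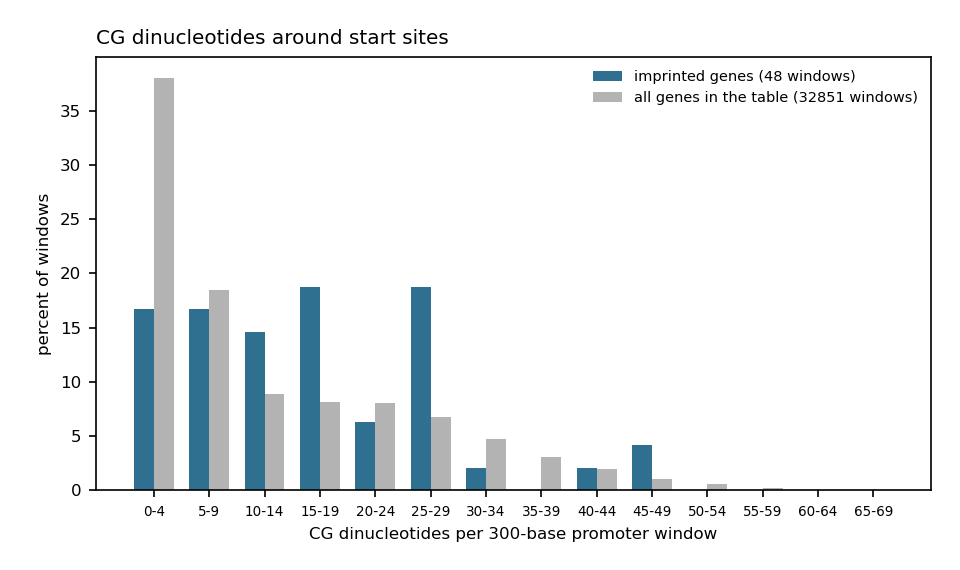
Percent of promoter windows (vertical axis) by the number of CG dinucleotides per 300-base window (horizontal axis), with the 48 windows of the imprinted genes in blue and all 32851 windows in grey. Windows with under 5 CG dinucleotides made up 16.7% of those of imprinted genes and 38.04% of all.

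Expression is given throughout as the log2 signal minus the array's 75th percentile, so 0 is the level of that percentile and a difference of -1 is a 2-fold lower signal. Levels of different probes are not compared with each other, and probe positions are on mm9. The arrays held 43020 non-control spots each, of which 63.6% to 68.6% were well above background, and none was saturated. All 10 beta cell markers listed were above background, with a summed linear level of 878 to 1167 times the 75th percentile on the high-fat arrays, against 801 to 1145 on the control arrays. Markers of other pancreatic cells were also detected, so by these markers the samples were not of beta cells alone. The 7 markers of acinar cells, which make the digestive enzymes, summed to 1392 to 2520 on the high-fat arrays, against 1187 to 2283 on the control arrays, and 6 of 7 lay higher on the high-fat diet. The 5 ductal markers summed to 7.44 to 9.77 on the high-fat arrays, against 5.36 to 8.64 on the control arrays, and all 5 lay higher. The 6 delta and PP cell markers summed to 311 to 365 on the high-fat arrays, against 363 to 471 on the control arrays, and all 6 lay lower on the high-fat diet (median difference -0.42). Of 7 alpha cell markers 5 lay lower (median -0.78), with sums of 314 to 352 on the high-fat arrays, against 280 to 381 on the control arrays. Macrophage markers (5) summed to 14.6 to 16.7 on the high-fat arrays and 18.2 to 22.8 on the control arrays, with 4 of 5 lower. The sums did not overlap, but each of the 5 markers taken by itself did. Stellate cell, pericyte and fibroblast markers (8) summed to 5.09 to 9.47 on the high-fat arrays and 4.88 to 6.87 on the control arrays. Of these 7 of 8 lay higher on the high-fat diet. Lymphocyte markers (4) summed to 5.36 to 10.8 on the high-fat arrays and 6.06 to 9.002 on the control arrays, with 3 of 4 lower. Endothelial markers (6) summed to 22.0 to 31.5 on the high-fat arrays and 19.3 to 28.4 on the control arrays, with 5 of 6 higher. Schwann cell markers (4) summed to 1.98 to 3.81 on the high-fat arrays and 3.07 to 5.95 on the control arrays, with 3 of 4 lower. Of the lists, Pou3f4 (alpha), Cftr (ductal) and Pdgfra (fibroblast) were below the filter. The part of these shifts in the differences that follow was not tested.

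Over the 33 genes measured, 25 lay lower on the high-fat diet and 8 higher, and their median difference was -0.29 on the log2 scale. Over all 19994 genes 49.8% lay lower and the median was 0.00093. Without Mest and Nnat, the genes that prompted the list, 23 of 31 lay lower and the median was -0.20. In 6 of the 33 every high-fat array was below every control array (Mest, Nnat, Dlk1, Grb10, Sgce and Rasgrf1), a pattern that 1.65% of all genes showed, and in none was every high-fat array above every control array (1.72% of all genes). With limma, 7 of 33 were lower at an unadjusted p under 0.05, those 6 and Cdkn1c, against 3.27% of all genes. None was higher, against 2.59%. After Benjamini-Hochberg adjustment over all genes limma called 0 of 33, and 0 of all 19994 (0.00%), although 1171 were under 0.05 without adjustment. The genes were chosen on this contrast, so nothing is read from these counts.

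Leaving out high-fat replicate 1 changed the count of 7 to 12 and the median to -0.39. Without high-fat replicate 2 the count stayed at 7 and the median came to -0.12. Under another background correction, normexp, the count was 1 and the median -0.045, while the median of all genes came to 0.13. In that setting 13 of 33 differences changed sign, Dlk1 and Cdkn1c among them. It took in 7 spots of high-fat replicate 2 with a local background of over 4 times the array's median. Without those spots the count was 7 again, the median -0.18, and 2 differences (Igf2 and Mkrn3) changed sign. In the authors' deposited table, which covers 32 of the 33 genes, the count was 10 but the sizes were smaller, with a median of -0.13. The share of all genes under each of these settings is not given. Whether a change in the count is particular to the imprinted genes therefore cannot be told.

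**Figure D2:**
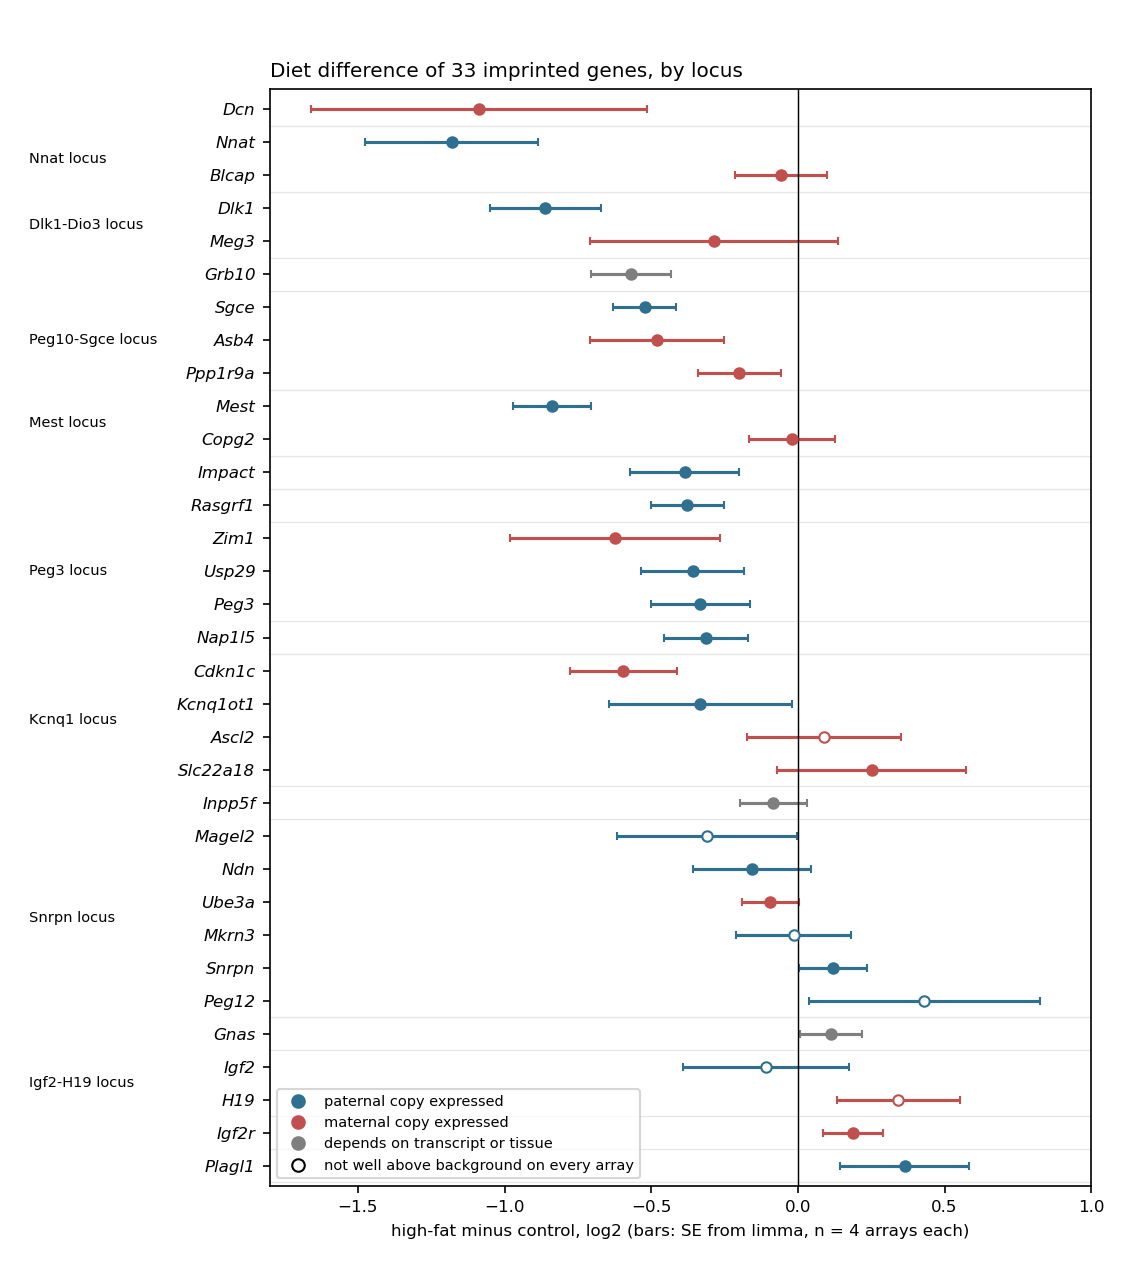
Difference between diets (high-fat minus control, log2, horizontal axis) of each of the 33 genes, grouped by locus from the lowest median at the top. Bars are the SE from limma with 4 arrays per diet, colours give the parental copy usually expressed, and open circles mark genes not well above background on every array. Nnat at -1.18 and Plagl1, at the bottom, at 0.36 stand near the ends of the range.

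At the Mest locus, the paternally expressed Mest lay lower on the high-fat diet while its neighbour differed little. Mest encodes a protein of the alpha/beta hydrolase fold. Its brightest probe (mm9 chr6:30697385-30697444) read -2.17, -2.23, -2.25 and -1.94 on the high-fat arrays, against -1.05, -1.30, -1.54 and -1.35 on the control arrays. The groups were separated by 0.41, and the difference was -0.84 ± 0.13 (SE, n = 4 each), 1.79-fold lower. The size depended on the processing: values of the authors' deposited table gave -0.24 and normexp without the smeared spots -0.51. Both other probes of Mest gave larger differences, -1.30 (chr6:30698279-30698338, read by 10 spots per array) and -1.17 (chr6:30692160-30692219, above background on 2 high-fat and 4 control arrays). Copg2, which encodes a coat protein of COPI transport vesicles and is maternally expressed in some tissues, read 0.99, 0.91, 0.94 and 0.68 on the high-fat arrays, against 0.82, 1.15, 0.59 and 1.04 on the control arrays. The 2 groups overlapped throughout (difference -0.02 ± 0.15). Its second probe, on the opposite strand and 152 bases beyond the Mest probe with 10 spots, gave -0.01.

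Nnat was the gene of the set with the largest difference. It encodes neuronatin, a small proteolipid of the endoplasmic reticulum membrane that beta cells express. Its levels were -1.9999, -2.37, -3.29 and -2.96 on the high-fat arrays, against -1.17, -1.39, -1.41 and -1.93 on the control arrays, a difference of -1.18 ± 0.29. The values of the authors' deposited table gave -0.31 and normexp without the smeared spots -0.70. The highest high-fat array lay only 0.07 below the lowest control array, and both high-fat arrays of slide 2 lay below both of slide 1. A second probe, upstream of the first, gave -1.40. Blcap, the maternally expressed gene in whose intron Nnat sits, read -0.24, -0.65, -0.17 and -0.09 on the high-fat arrays, against -0.46, -0.30, -0.11 and -0.03 on the control arrays. These overlapped fully (-0.06 ± 0.16). The nearest Nnat and Blcap probes were 4995 bases apart.

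At the Dlk1-Dio3 locus, Dlk1, a transmembrane protein of the Delta/Notch family from the paternal copy, read -2.25, -2.93, -2.80 and -3.02 on the high-fat arrays, against -2.02, -1.93, -2.01 and -1.60 on the control arrays. No array of the high-fat diet reached the control range, and the difference was -0.86 ± 0.19, or 1.82-fold lower. With normexp the difference was 0.05, with normexp without the smeared spots -0.43, and with the values of the authors' deposited table -0.19. The second Dlk1 probe, above background on 1 high-fat and 3 control arrays, gave -1.18. Meg3, the long non-coding RNA of the maternal copy, varied more between arrays of 1 diet than between diets: it read 5.70, 3.81, 5.24 and 4.50 on the high-fat arrays, against 5.84, 4.74, 4.88 and 4.94 on the control arrays (-0.29 ± 0.42). Its 3 probes differed in size (-0.29, -0.32 and -0.60), and in each of them high-fat replicate 1 was the highest and high-fat replicate 2 the lowest of the high-fat arrays. Without high-fat replicate 2 the difference was 0.05. Dio3, which encodes the deiodinase that inactivates thyroid hormone, was not well above background on any array.

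**Figure D3:**
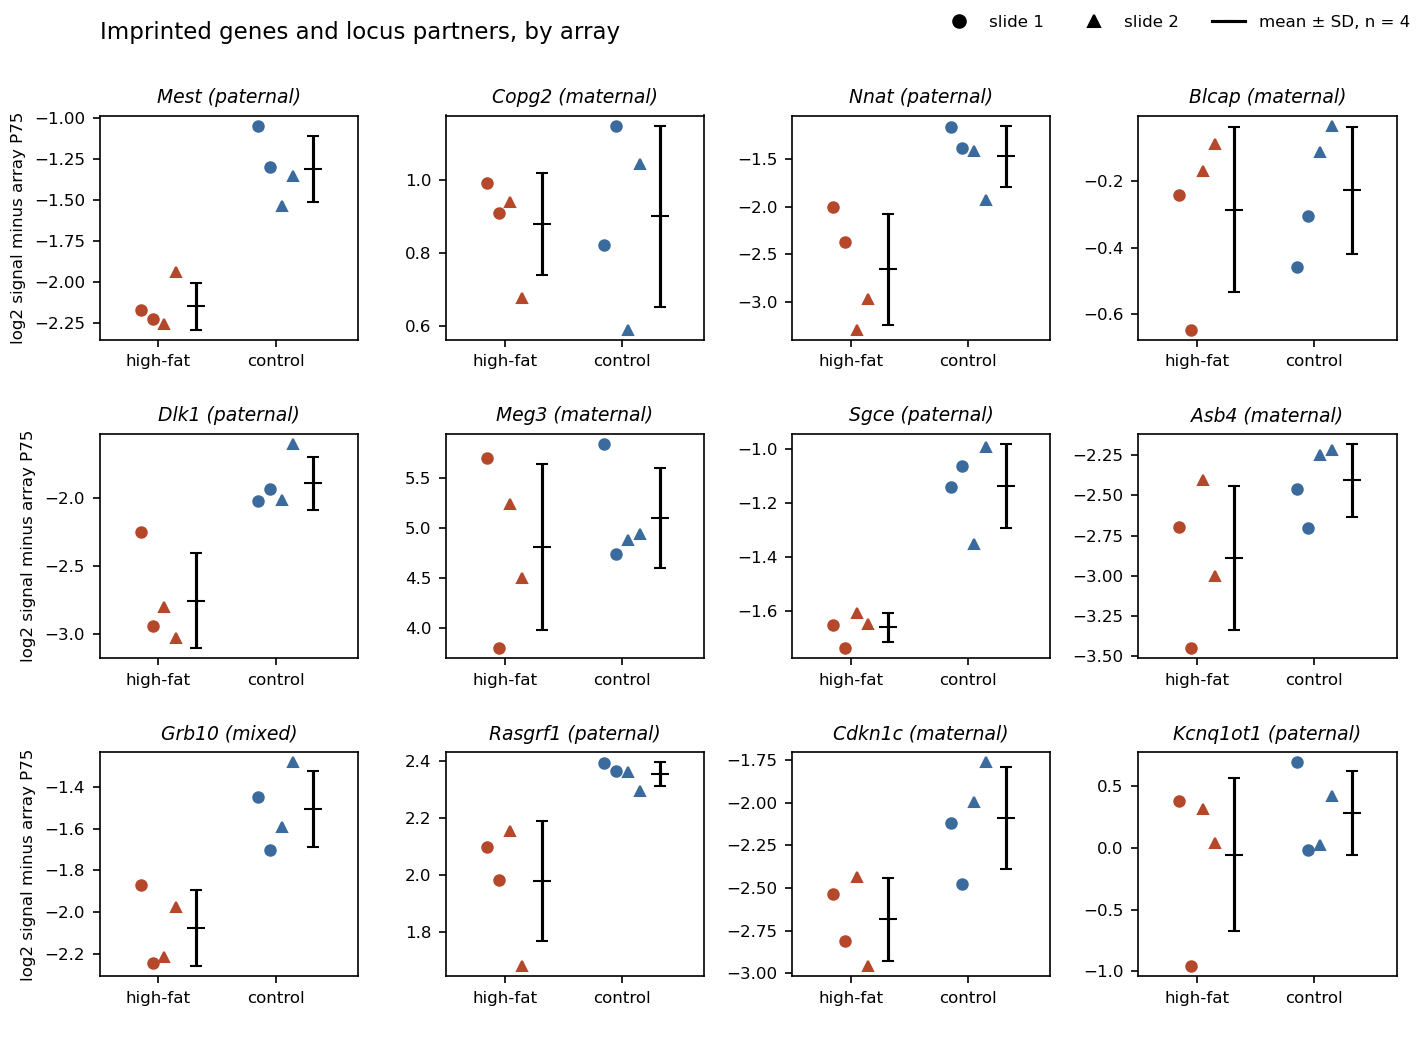
Log2 signal minus the array's 75th percentile (vertical axes) of 12 genes on each high-fat array (left in each panel, red) and control array (right, blue), with circles for slide 1, triangles for slide 2 and bars for the mean ± SD of 4 arrays. Vertical axes differ between panels. High-fat and control points are apart in Mest, Nnat, Dlk1, Sgce, Grb10 and Rasgrf1 and overlap in Copg2, Blcap, Meg3, Asb4, Cdkn1c and Kcnq1ot1.

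The Kcnq1 domain holds maternally expressed genes and a paternally expressed antisense RNA. Cdkn1c encodes p57, the cyclin-dependent kinase inhibitor. It read -2.53, -2.81, -2.43 and -2.96 on the high-fat arrays, against -2.12, -2.48, -1.997 and -1.76 on the control arrays. The mean was 0.60 ± 0.18 log2 units lower, and the groups overlapped at 1 point, since control replicate 2 lay just below high-fat replicate 3. With normexp the difference was 0.17, with normexp without the smeared spots -0.30, and with the values of the authors' deposited table -0.13. Kcnq1ot1, the long non-coding RNA, spread widely: 0.38, -0.96, 0.32 and 0.04 on the high-fat arrays, against 0.69, -0.02, 0.02 and 0.42 on the control arrays (-0.33 ± 0.31, with -0.33 from a second probe). As in the brightest Meg3 probe, replicate 1 was the highest and replicate 2 the lowest in both diets. In the second Kcnq1ot1 probe replicate 2 was again the lowest in both diets. There replicate 3 was the highest, at -2.44 on the high-fat and -2.35 on the control diet. In 1 other Meg3 probe control replicate 4, at 1.75, was the lowest control. Slc22a18, a transporter-like membrane protein, was higher by 0.25 ± 0.32 and overlapped, with -1.60, -0.65, -1.81 and -0.56 on the high-fat arrays and -1.74, -1.47, -1.50 and -0.91 on the control arrays. Ascl2, a helix-loop-helix factor of trophoblast and intestinal stem cells, was above background on 3 arrays of each diet. It read -4.70, -4.48, -4.78 and -5.34 on the high-fat arrays, against -5.17, -5.38, -4.35 and -4.75 on the control arrays, and the diets overlapped (0.09 ± 0.26). Phlda2, which limits placental growth, was not well above background on any array.

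Igf2 and H19, the textbook pair of reciprocally imprinted genes, were both near background in these samples. Igf2, the fetal growth factor of the paternal copy, was above background on 2 of 4 high-fat and 4 of 4 control arrays. It read -4.01, -4.89, -5.24 and -5.25 on the high-fat arrays, against -4.87, -4.70, -4.40 and -4.98 on the control arrays, with the highest value of all in high-fat replicate 1. The difference of -0.11 ± 0.28 had opposite signs on the slides. H19, the maternal non-coding RNA, read -4.35, -4.50, -4.88 and -4.14 on the high-fat arrays, against -4.81, -5.25, -4.48 and -4.70 on the control arrays (0.34 ± 0.21, overlapping). Igf2r, the maternally expressed receptor that takes IGF2 to lysosomes, lies at a locus of its own. Its levels were 1.33, 1.45, 1.44 and 1.45 on the high-fat arrays, against 1.22, 1.20, 1.41 and 1.09 on the control arrays, a difference of 0.19 ± 0.10 with 1 control array inside the high-fat range.

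All 3 genes of the Peg3 locus lay lower on the high-fat diet without a gap between the groups. Peg3, a zinc finger protein of the paternal copy, read 1.54, 1.02, 1.28 and 0.80 on the high-fat arrays, against 1.62, 1.45, 1.32 and 1.58 on the control arrays (-0.33 ± 0.17). Usp29, which shares its start region and is also paternal, read -0.82, -1.12, -1.34 and -1.57 on the high-fat arrays, against -0.71, -0.90, -0.73 and -1.07 on the control arrays (-0.36 ± 0.18). In both genes high-fat replicate 4 was lowest and high-fat replicate 1 reached the control range. Zim1, the maternally expressed zinc finger gene beside them, read -1.59, -3.18, -2.63 and -3.24 on the high-fat arrays, against -1.66, -2.35, -1.98 and -2.16 on the control arrays. There high-fat replicate 1 was the highest of all 8 arrays and the other high-fat arrays the lowest (-0.62 ± 0.36). Second probes gave -0.40 for Peg3 and -0.78 for Zim1.

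At the Peg10-Sgce locus, Sgce, which encodes epsilon sarcoglycan from the paternal copy, had the tightest high-fat values: -1.65, -1.74, -1.61 and -1.65, against -1.14, -1.06, -1.35 and -0.99 on the control arrays. The gap was 0.25 and the difference -0.52 ± 0.11, against -0.19 from the values of the authors' deposited table. Asb4, an ankyrin repeat protein from the maternal copy, read -2.69, -3.45, -2.40 and -3.00 on the high-fat arrays, against -2.46, -2.70, -2.25 and -2.22 on the control arrays. Its probes disagreed, with -0.48 ± 0.23 for the brighter and 0.15 for the other. Ppp1r9a (neurabin, which binds actin and protein phosphatase 1) read 0.61, 0.30, 0.34 and 0.09 on the high-fat arrays, against 0.77, 0.51, 0.35 and 0.51 on the control arrays. It overlapped (-0.20 ± 0.14), with all 3 of its probes below 0. Peg10, with 2 probes, and Calcr, the calcitonin receptor, were not well above background on any array.

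The 6 genes of the Snrpn locus, the mouse counterpart of the Prader-Willi and Angelman region, had a median difference of -0.05, with 4 below 0 and 2 above. Snrpn, a protein of the spliceosome's ribonucleoproteins, read 0.63, 0.71, 0.85 and 0.70 on the high-fat arrays, against 0.64, 0.72, 0.35 and 0.69 on the control arrays (0.12 ± 0.12). The diets overlapped, with control replicate 3 the lowest array and high-fat replicate 3 the highest. Ube3a, an E3 ubiquitin ligase whose paternal copy is silent in neurons, read -0.72, -0.81, -0.85 and -0.69 on the high-fat arrays, against -0.61, -0.72, -0.59 and -0.79 on the control arrays (-0.09 ± 0.10). Ndn (necdin, a MAGE family protein) read -0.20, 0.39, 0.36 and 0.22 on the high-fat arrays, against 0.40, 0.59, -0.14 and 0.55 on the control arrays (-0.16 ± 0.20). Each of these overlapped, with 1 low array in either diet for Ndn. A further 3 paternal genes of the locus were near background and overlapped as well. Magel2, of the MAGE family, read -4.58, -5.28, -4.25 and -4.77 on the high-fat arrays, against -4.33, -5.19, -4.15 and -3.96 on the control arrays (-0.31 ± 0.31). Mkrn3, a ring finger protein, read -4.98, -4.93, -4.54 and -4.54 on the high-fat arrays, against -5.19, -4.77, -4.39 and -4.58 on the control arrays (-0.02 ± 0.20). Peg12 differed by 0.43 ± 0.39, and its values by slide are given further on.

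Among genes at loci of their own, Grb10, an adaptor that binds the insulin and IGF1 receptors and is expressed from the maternal copy in most tissues and the paternal one in neurons, read -1.87, -2.24, -2.22 and -1.98 on the high-fat arrays, against -1.45, -1.70, -1.59 and -1.28 on the control arrays. Every high-fat array was lower (-0.57 ± 0.14), by a gap of 0.17. The values of the authors' deposited table also gave -0.19 for this gene. Rasgrf1, a Ras exchange factor of the paternal copy, read 2.10, 1.98, 2.15 and 1.68 on the high-fat arrays, against 2.39, 2.37, 2.36 and 2.30 on the control arrays. Here the control values lay within a range of 0.10 while high-fat replicate 4 stood below the other high-fat arrays (-0.38 ± 0.12, with -0.33 from a second probe). Impact, which restrains the kinase GCN2, differed by -0.39 ± 0.19, with 2.21, 1.60, 1.81 and 1.42 on the high-fat arrays, against 2.37, 2.22, 1.95 and 2.04 on the control arrays. Nap1l5, a nucleosome assembly protein relative, differed by -0.31 ± 0.14, with 0.72, 0.18, 0.66 and 0.38 on the high-fat arrays, against 0.87, 0.64, 0.81 and 0.87 on the control arrays. High-fat replicate 1 lay in the control range in both genes, and high-fat replicate 3 in Nap1l5.

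Plagl1, a paternally expressed zinc finger transcription factor, was the gene whose probes split by position. Its brightest probe read -0.58, 0.27, 0.33 and 0.35 on the high-fat arrays, against -0.48, -0.31, -0.10 and -0.20 on the control arrays: 3 high-fat arrays lay above all controls and high-fat replicate 1 below them (0.36 ± 0.22). The probe next to it (chr10:12848851-12848910) gave 0.36, also with high-fat replicate 1 lowest of its diet. The probes further along, at chr10:12850832-12850891 and chr10:12851280-12851339, gave -0.07 and -0.21, and there high-fat replicate 1 was the highest of its diet. Whether the probes read different transcripts was not tested.

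Gnas, which encodes the stimulatory G protein alpha subunit and gives transcripts from either copy, also gave unlike values along its locus. The brightest probe, at chr2:174171933-174171992, differed by 0.11 ± 0.11, with 5.69, 5.84, 5.88 and 5.88 on the high-fat arrays, against 5.61, 5.82, 5.58 and 5.84 on the control arrays. A probe at chr2:174163501-174163560 gave -0.16. The one at chr2:174122337-174122396 gave -0.68, with -1.13, -2.86, -1.71 and -2.11 on the high-fat arrays, against -0.55, -1.76, -1.55 and -1.24 on the control arrays. In that probe replicate 1 was the highest and replicate 2 the lowest of each diet, as in the brightest probes of Meg3 and Kcnq1ot1. Inpp5f, a phosphoinositide phosphatase with 1 imprinted transcript, read -1.40, -1.55, -1.48 and -1.56 on the high-fat arrays, against -1.28, -1.54, -1.58 and -1.25 on the control arrays, and overlapped (-0.08 ± 0.11).

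Dcn encodes decorin, a proteoglycan of the extracellular matrix that stromal cells make and that is imprinted in placenta. It had the second largest difference of the set and the widest spread, with -0.16, 0.88, -0.52 and 1.39 on the high-fat arrays, against 1.59, 1.94, 0.08 and 2.34 on the control arrays. The diets overlapped (-1.09 ± 0.57). The list of stellate cell, pericyte and fibroblast markers had a median difference of 0.24, with 7 of 8 above 0 and Lum below at -0.43 ± 0.71. None of the 8 was lower or higher at an unadjusted p under 0.05 with limma, against 3.27% and 2.59% of all genes. The part of stromal cells in Dcn's difference was not tested.

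Grouped by the copy usually expressed, 14 of the 17 paternally expressed genes measured (of 19 listed) lay lower on the high-fat diet, with a median of -0.33, and 5 of them had no overlap between diets. Of the 13 maternally expressed genes measured (of 16 listed), 9 lay lower, with a median of -0.09, and none was without overlap. Over all genes 49.8% lay lower, and in 1.65% every high-fat array was below every control array. Mest and Nnat, which prompted the list, are among the paternal genes without overlap. Since the genes were chosen on this contrast, nothing about the parental copy is read from these counts. The remaining 3 genes (Grb10, Gnas and Inpp5f) use either copy by tissue or transcript. Several maternal entries (Copg2, Blcap, Ube3a, Ascl2, Ppp1r9a and Dcn) are imprinted in few tissues. Expression from each copy was not measured, and no difference between the paternal and maternal groups was tested.

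**Figure D4:**
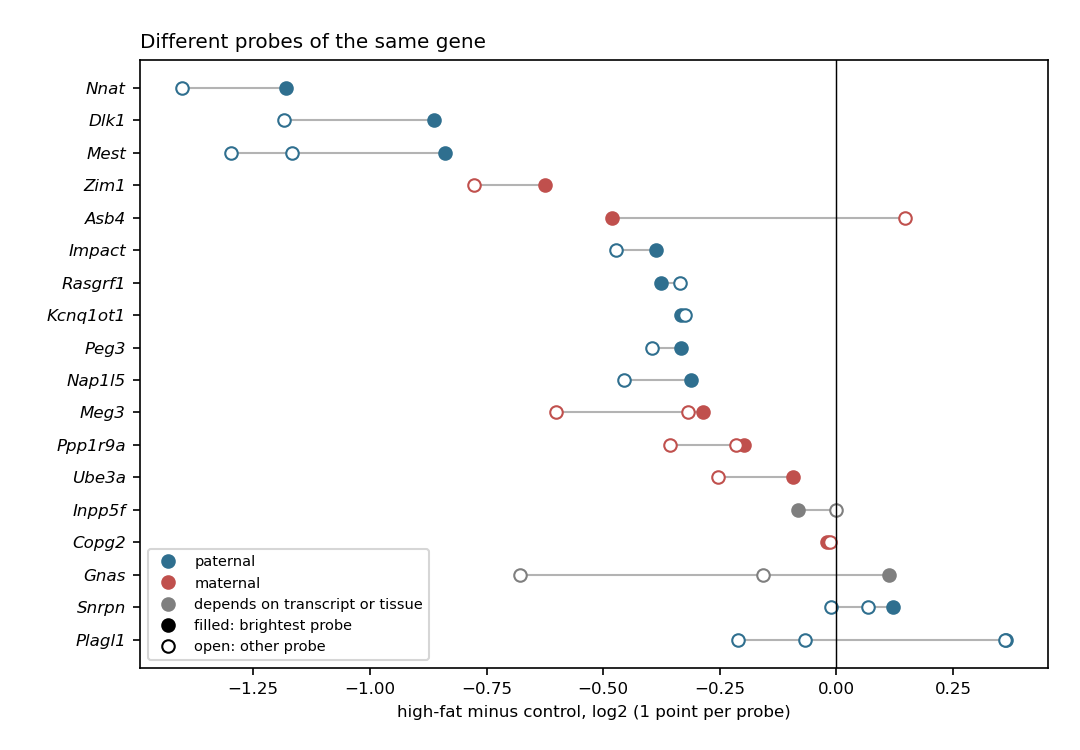
Difference between diets (high-fat minus control, log2, horizontal axis) for each probe of the 18 genes with at least 2 probes above background. Filled circles are the brightest probe and open ones the others. Mest, Nnat and Dlk1 lie left of -0.8 with every probe, while Asb4, Gnas, Snrpn and Plagl1 have probes on both sides of 0.

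Altogether 58 of 67 probes passed the filter. In 14 of the 18 genes with several such probes all probes had the same sign, and the exceptions were Asb4, Gnas, Snrpn and Plagl1. Of the 33 genes measured 6 were not above background on every array (Igf2, H19, Ascl2, Magel2, Mkrn3 and Peg12), and none had passed through 1 diet alone.

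Both slides held 2 arrays of each diet, which allows the difference to be taken on each. The sign was the same on both slides in 28 of 33 genes, below 0 in 22 and above 0 in 6. The share of all genes is not given, so nothing is read from this count. In genes without overlap between diets, such as Mest, Nnat and Dlk1, the sign could not differ between slides. Mest differed by -1.03 on slide 1 and -0.65 on slide 2, Nnat by -0.91 and -1.45, and Dlk1 by -0.62 and -1.11. The diet by slide interaction, which did not enter the choice of genes, was called by limma in 0 of 33 genes and in 0.00% of all genes at an adjusted p under 0.05. Without adjustment 1 of 33 was under 0.05, Ascl2 at -1.19 ± 0.35 (adjusted p = 0.71), against 6.86% of all genes. For Mest the interaction was 0.37 ± 0.24 (limma, adjusted p = 0.80) and for Nnat -0.55 ± 0.34 (limma, adjusted p = 0.79). With 2 arrays per diet and slide these estimates are wide, and they do not show that the slides gave alike values.

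**Figure D5:**
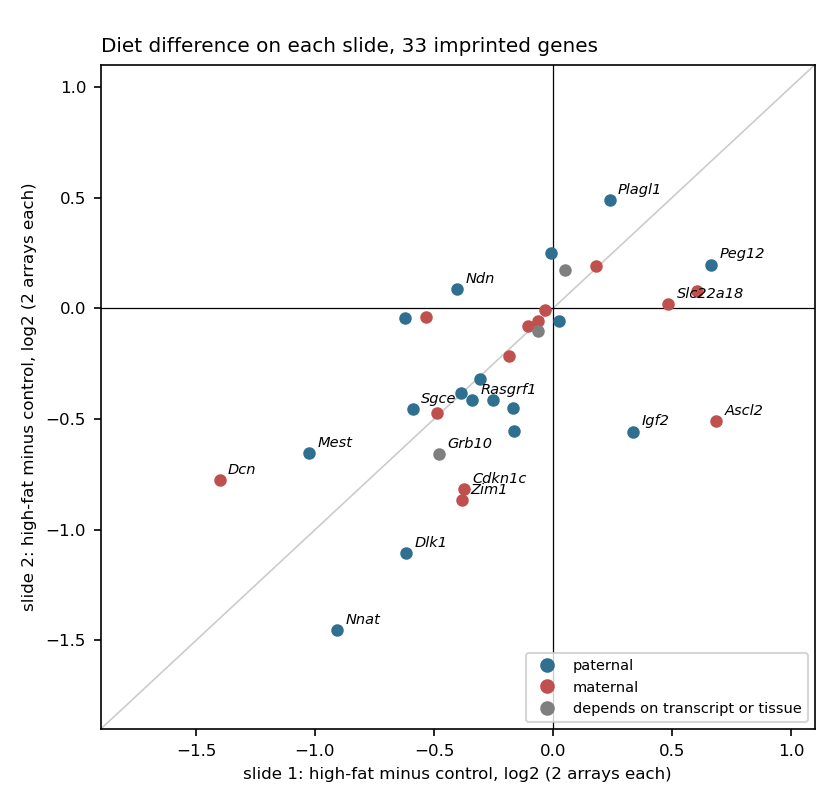
Difference between diets on slide 1 (horizontal axis) and slide 2 (vertical axis), each high-fat minus control on the log2 scale from 2 arrays per diet, for 33 imprinted genes coloured by the parental copy usually expressed. The grey line marks equal differences. Dots for 22 genes lie at the lower left, below 0 on both axes, and Igf2 and Ascl2 lie above 0 on slide 1 and below 0 on slide 2.

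The slide itself was tested with diet in the model. Peg12, a Frat family gene, was 1.02 ± 0.18 higher on slide 2 than on slide 1 (limma, adjusted p = 0.033). It was the 1 of 33 genes called (3.03%), near the share of all genes (3.40%). Its levels were -3.79 and -3.67 on slide 2 and -4.42 and -4.61 on slide 1 in high-fat mice, against -3.75 and -4.10 on slide 2 and -4.87 and -5.48 on slide 1 in control mice. So 4 of 4 arrays of slide 2 lay above all 4 of slide 1. Peg12 was well above background on only 3 of 4 control arrays. Control replicate 2, at -5.48, lay under that array's lowest value well above background, -5.07. The call thus rests in part on a value at background. The call was kept without high-fat replicate 1 and lost without any other single array, including each of the control arrays. Without adjustment 4 of 33 genes differed between slides, Peg12, Mkrn3 (0.46 ± 0.12), Blcap (0.31 ± 0.11) and Nnat (-0.67 ± 0.19), against 19.1% of all genes.

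Some arrays stood at the ends of their diet more often than others. High-fat replicate 1 was the highest of the high-fat arrays in 14 of 33 genes (42.4%), against 30.2% of all genes, and high-fat replicate 2 in 3 (9.09%), against 25.1% of all genes. Control replicate 4 was the highest control in 12 genes (36.4%), against 18.0% of all genes. Control replicate 3 was so in 8 (24.2%), against 39.7%, and control replicate 2 in 3, against 19.3% of all genes. Control replicates 2 and 3 were each the lowest control in 11 (33.3%), against 28.5% and 24.7% of all genes. High-fat replicate 4 was the lowest high-fat array in 12 genes (36.4%), against 24.8% of all genes, and high-fat replicate 1 in 6 (18.2%), against 29.4%.

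The factors that set or keep imprints differed little. A list of 22 such genes, also written with results of these arrays known, had 19 above the filter (Dppa3, Nlrp2 and Zfp42 were not), of which 14 lay lower and 5 higher on the high-fat diet, with a median of -0.06. At an unadjusted p under 0.05 limma had 1 lower, Arid4a (-0.29 ± 0.12), a chromatin protein that binds the retinoblastoma protein, and none higher, against 3.27% lower and 2.59% higher of all genes. None passed adjustment. The largest differences in either direction were those of Tet1, which oxidises methylated cytosine (0.35 ± 0.21), Uhrf1, which brings Dnmt1 to newly copied DNA (0.34 ± 0.44), Arid4a, and Zfp57, which binds methylated imprinting control regions (0.28 ± 0.21). Dnmt1, the methyltransferase that copies methylation, differed by -0.07 ± 0.11 and Trim28, the partner of Zfp57, by -0.15 ± 0.16. Each of these overlapped between diets.

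A further list of 45 symbols of imprinted genes and their neighbours outside the 38 had 35 above the filter. Of these 17 lay lower and 18 higher, with a median of 0.03. At an unadjusted p under 0.05 limma had 4 of 35 lower and 5 higher, against 3.27% and 2.59% of all genes, and none passed adjustment. In 2 of the 5, Ddc (0.23 ± 0.10), which encodes aromatic L-amino acid decarboxylase, and Slc38a4 (0.23 ± 0.09), an amino acid transporter, all high-fat arrays were above all control arrays, a pattern that 1.72% of all genes showed. Both were named after their values were seen. The largest differences were those of Begain, at the edge of the Dlk1-Dio3 locus (-1.30 ± 0.45), Slc22a2, an organic cation transporter near Igf2r (0.82 ± 0.30), Trpm5, a cation channel near the Kcnq1 domain (-0.63 ± 0.24), and H13, a signal peptide peptidase (0.48 ± 0.17). Begain was not well above background on 2 of the 4 high-fat arrays, replicates 3 and 4, so its difference rests in part on values at background. It read -4.84, -4.11, -5.61 and -6.01 on the high-fat arrays, against -4.29, -3.60, -4.37 and -3.10 on the control arrays. H13 read 4.60, 5.13, 5.13 and 5.33 on the high-fat arrays, against 4.39, 4.60, 4.66 and 4.64 on the control arrays, with only high-fat replicate 1 inside the control range. In this wider list the signs were about even.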

How the data were processed

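The deposited scanner files, 1 per array, give each spot's processed signal in intensity units, made by Agilent Feature Extraction 11.5.1.1 per the file headers. The authors also deposited a table of log2 values, for which the submitters' processing notes name limma; its normalization is not known in full. Its direction matched the scanner files, and 0 of its columns were left unmapped.

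Log2 of the processed signal minus the array's 75th percentile was used. Spots marked as outliers (125 to 228 per array) were left out, spots of a probe averaged and probes kept that exceeded background clearly on 4 or more of the 8 arrays (26076 probes). Of several probes, the brightest on average represented the gene. Gene names and mm9 positions are those of the scanner files. Diet, slide and their interaction were modelled over all genes (19994) with limma 3.58.1 (R 4.3.3) and p-values adjusted by Benjamini and Hochberg at 0.05. The median SE of a difference was 0.17, and no imprinted gene had a missing value. The fits were tested on simulated data first.

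The imprinted genes and all lists were chosen with earlier results of these data known. Every imprinted gene above the filter is named with its values. In the 2 wider lists the 4 largest differences are named; Dnmt1, Trim28, Ddc, Slc38a4 and the marker gene Lum were added after their values were seen. Replicates may be separate mice, but the labels say only that they are biological replicates. Each p-value from limma sets a difference against the spread between these samples, with a variance drawn in part from all genes. Whether that spread is one between mice is not known. The alternatives were normexp background correction (offset 50) with and without 7 smeared spots, quantile and median scaling, the deposited table, other filters on dim probes, averaging over probes, trended and robust variances, slide and replicate blocks, single slides, and leaving out each array. The number of arrays limits the precision. Promoters are from RefSeq's table for GRCm38.p6, matched by symbol, and no position was carried between builds.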

Additional observations from a re-analysis of the deposited data

Results flagged for a closer look

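In 2 of the 66 groups of 4 arrays (33 genes, each diet), 1 array stood far from the other 3 by the spacing of the values. Chance alone marks about 1 in 20 such groups. Plagl1 in high-fat replicate 1 read -0.58 on the log2 scale, against 0.27 to 0.35 on the other high-fat arrays, a gap of 0.91 of the group's whole range. Igf2r in high-fat replicate 1 read 1.33, against 1.44 to 1.45 on the other high-fat arrays, a gap of 0.92 of the range. The causes were not tested.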

How the results depend on the processing

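Mest, Nnat, Grb10, Sgce and Rasgrf1 kept their direction under all 21 alternatives of the diet difference, and Dlk1 and Cdkn1c under all but normexp background correction. Many of these alternatives could not turn the sign. Apart from Cdkn1c, these genes had no overlap between diets, which fixed the sign when an array was left out or a slide taken alone. The variance, block and dim-probe settings left the estimates as they were. The sizes of the differences did not hold: normexp gave Mest -0.090, Nnat -0.24, Grb10 -0.022, Sgce -0.079 and Rasgrf1 -0.74, and the deposited table Mest -0.24, Nnat -0.31, Grb10 -0.19, Sgce -0.19 and Rasgrf1 -0.38. The causes of the changes that follow were not tested unless a reason is given. Normexp took the count of imprinted genes lower at an unadjusted p under 0.05 to 1, against 7, and the median over the genes to -0.045, against -0.29, and moved 20 of the 33 differences by over 1 SD. Slide 1 alone gave 4 lower and 2 higher, from fewer arrays. The count of higher genes, 0 in the report, was 1 with quantile normalization, median scaling, slide as a block and slide 2 alone. Leaving out 1 array gave 7 to 12 lower, 0 to 1 higher, and 0 to 1 genes called for slide. Shares of all genes under these alternatives are not given, so nothing about the imprinted genes is read from these counts. The slide call of Peg12 was lost (0 called) with normexp, normexp without smeared spots, the deposited table, no filter on dim probes, a filter on all arrays (which drops Peg12) and trended and robust variances. The share of imprinted genes with a CG-rich promoter was 59.4% in windows of 250 bases before the start, against 33.2% of all genes. No alternative called a gene for diet or for the interaction at an adjusted p under 0.05.

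Replicate numbers are shared between diets. Same-numbered arrays correlated, over all genes, at 0.21, 0.40, -0.0041 and 0.30 in their deviations from the diet means, so the numbers were not taken to pair the samples. Of the 8 samples 6 correlated best with their own number, which is a hint from the data and not from the design. With the replicate block, limma had 13 of the 33 imprinted genes lower and 1 higher at an unadjusted p under 0.05, and 0 after adjustment. The share of all genes under this block is not given, so nothing about the imprinted genes is read from these counts. The SE of Dcn's difference of -1.09 was 0.20 with the block, against 0.57 without it.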
